A study of Mus musculus with 6 samples.

Results

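The cytosolic ribosomal protein genes numbered 50, of 18193 genes with a probe set assigned to 1 symbol. They were taken by symbol, as Rpl or Rps (with the stalk genes Rplp and the gene Rpsa) followed by a number, without the S6 kinases and without pseudogenes named as such. Their signals were compared between megakaryocyte progenitors of the fetal liver at E13.5 (3 arrays) and those of the bone marrow of adult mice aged 12 to 18 weeks (3 arrays). All mice were wild-type C57BL/6. In both organs the cells, precursors of megakaryocytes and platelets, were sorted as negative for lineage markers and Sca-1 and positive for c-kit, CD150 and CD41. Samples of an organ are labelled as biological replicates, with no word on how many animals or embryos each one pooled. The 50 genes were represented by 106 probe sets, and 47 of them passed the filter on dim probe sets, among 11625 genes tested. They comprised 21 large subunit genes, 20 small subunit genes, 4 paralogues (Rpl22l1, Rpl39l, Rpl7l1 and Rps27l), the transcribed pseudogene Rps4l and Rps19bp1, which encodes a protein that binds Rps19 and is no subunit itself. Rpl37, Rps16 and the paralogue Rpl3l, a form of striated muscle, did not pass, with signals of at most 21.0, 2.62 and 19.1 on the 6 arrays. None of these 3 was above the bacterial control probe sets, whose highest signals were 22.2 to 35.1, on any array. Rpl37 and Rps16 were also listed, together with other symbols, on brighter probe sets that were assigned to no gene. The brightest of these had means of 17285 and 12725 in fetal liver and 18357 and 13568 in bone marrow.

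The cytosolic ribosome is built from a large and a small subunit, and most of its proteins are present once in each ribosome. Messenger RNAs of ribosomal proteins are among the most abundant of a growing cell. Most begin with a run of pyrimidines, the 5′ terminal oligopyrimidine (TOP) tract, through which the kinase mTORC1 sets how much of the mRNA is translated, so the mRNA level and the output of protein can differ. Blood formation is known to be sensitive to these proteins: in humans, loss of a single gene copy of any of several of them causes Diamond-Blackfan anaemia.

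These 50 are not the whole set of ribosomal proteins, since 110 further probe sets carry a ribosomal protein symbol together with at least 1 other symbol and were assigned to no gene. A further 31 ribosomal protein symbols, among them Rpl3, Rpl5, Rplp1 and Rpl35a, occur on such shared probe sets alone. The ribosomal protein genes have many near-identical pseudogenes, so signals of the assigned probe sets can also include RNA of related copies.

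Every array had the same trimmed mean signal of 500 as deposited. The median signal over all probe sets was 64.2 ± 1.34 in fetal liver and 76.9 ± 3.06 in bone marrow (SD, n = 3 each, two-sided exact permutation p = 0.1, the smallest possible with these numbers). For Actb the ratio of 5′ to 3′ probe set signals, a measure of RNA quality and labelling, was 0.961 ± 0.065 in fetal liver and 1.09 ± 0.038 in bone marrow (exact permutation p = 0.1), and for Gapdh it was 0.330 ± 0.192 in fetal liver and 0.193 ± 0.103 in bone marrow (exact permutation p = 0.3). Kit, Slamf1 and Itga2b, which encode the sort antigens, were above background on at least 1 array of each organ, and none of the 3 passed the threshold in limma (1 lower at an unadjusted p under 0.05). Their summed signal was 4521 to 5248 in fetal liver and 6609 to 7357 in bone marrow. Of 9 measured megakaryocyte markers, all above background on at least 1 array of each organ, 2 rose and 0 fell (2 lower at an unadjusted p under 0.05), with sums of 40230 to 50113 in fetal liver and 44735 to 48474 in bone marrow. All 11 measured granulocyte and monocyte markers were lower in fetal liver, where their summed signal was 4859 to 7023, against 44985 to 73329 in bone marrow, and 1 of them was not above background on any fetal liver array. Of 14 erythroid markers 5 rose, 2 were not above background on any bone marrow array, and the sum was 30043 to 45675 in fetal liver and 22330 to 27851 in bone marrow. Of 5 macrophage markers 3 fell (253 to 391 in fetal liver, 1708 to 3276 in bone marrow), of 5 lymphoid markers 2 fell (467 to 643 in fetal liver, 1960 to 2411 in bone marrow), and of 5 hepatocyte markers 1 rose (605 to 3644 in fetal liver, 223 to 624 in bone marrow). In RNA of a sorted population, fewer cells of a type and less RNA per cell cannot be told apart, and the part of these other cells in the results below was not tested.

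The sequence around the start sites was a feature that the choice of members did not use. Of the 50 genes, 44 had a promoter sequence in RefSeq (GRCm38.p6), with 52 annotated starts. A tract of C followed by at least 4 further pyrimidines was sought on the strand that reads as the mRNA. It touched the bases from 10 before to 20 after the start at 36 of the 52 (69.2%), against 43.5% of all 32851 promoters. The word CCGGAAG, read on both strands over 300 bases, which is a form of the ETS factor motif, was in 21 of the 52 (40.4%), against 8.86% of all promoters. These matches describe the sequence and are not shown to be sites. Windows from 30 bases before to 20 bases after the single annotated start are given for the gene past the threshold (Rpl14), 3 subunit genes with a tract, the paralogues Rpl22l1 and Rpl39l, and Rps4x, which has no such tract. They are written 5′ to 3′ on the strand that reads as the mRNA, with the tract in capitals:
Rpl14 (chr9:120571487-120571536, plus strand): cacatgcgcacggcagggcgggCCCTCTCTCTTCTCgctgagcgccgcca
Rps6 (chr4:86857348-86857397, minus strand): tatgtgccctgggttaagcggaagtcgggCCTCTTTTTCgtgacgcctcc
Rpl27a (chr7:109519165-109519214, plus strand): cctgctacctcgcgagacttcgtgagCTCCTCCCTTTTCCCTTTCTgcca
Rpl38 (chr11:114668550-114668599, plus strand): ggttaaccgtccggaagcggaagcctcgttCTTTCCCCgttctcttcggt
Rpl22l1 (chr3:28805478-28805527, plus strand): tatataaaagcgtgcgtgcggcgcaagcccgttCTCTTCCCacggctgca
Rpl39l (chr16:10170198-10170247, plus strand): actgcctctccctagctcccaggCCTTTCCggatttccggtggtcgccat
Rps4x (chrX:102189372-102189421, minus strand): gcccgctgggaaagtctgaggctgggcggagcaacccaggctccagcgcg
The tract spans the annotated start in Rpl14, Rps6 and Rpl27a, begins at the first base in Rpl38 and lies just after the start in Rpl22l1. In Rpl39l it ends at the last base before the start.

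Ribosomal protein genes had nearly the same signals in fetal liver and bone marrow progenitors. In limma with Benjamini-Hochberg adjustment over all 11625 genes, 1 of the 47 members rose (2.13%) and 0 fell, against 7.77% of all genes called (3.01% higher and 4.76% lower in fetal liver), and 2 members had an unadjusted p under 0.05. The median log2 fold change, fetal liver over bone marrow, was -0.09 over the 47 members and 0.01 over all genes. It was -0.04 for the large subunit and -0.14 for the small subunit. Of the 47 members 16 had a positive and 31 a negative fold change, but this split depends on scaling: 28 of the 47 were positive with quantile normalization, and 45 with the arrays centred on their medians, which moved the median of all genes to 0.26. The members' median minus that of all genes was -0.09, and -0.06 with quantile normalization.

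The estimates were narrow enough to bound most changes in the signal of the chosen probe sets. The 95% interval of the fold change lay within 1 log2 unit of 0, that is within 2-fold either way, for 42 of the 47 members (89.4%), against 30.9% of all genes. The 5 others were Rpl14, Rpl39, Rpl39l, Rps27 and Rps4l. The fold change itself was under 0.25 in size for 40 members (85.1%), against 32.7% of all genes. Bright probe sets vary less, and 32 of the 41 subunit genes had a mean signal above 10000, as did 2.43% of all genes. The intervals cover the spread between arrays, and whether such high signals follow the amount of RNA in proportion was not tested. Among the 250 other genes as bright, the interval lay within 1 log2 unit for 94.0%, the fold change was under 0.25 in size for 75.6%, and 3.60% were called. Of the 32 bright subunit genes, all 32 had such an interval and 30 such a fold change.

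**Figure D1:**
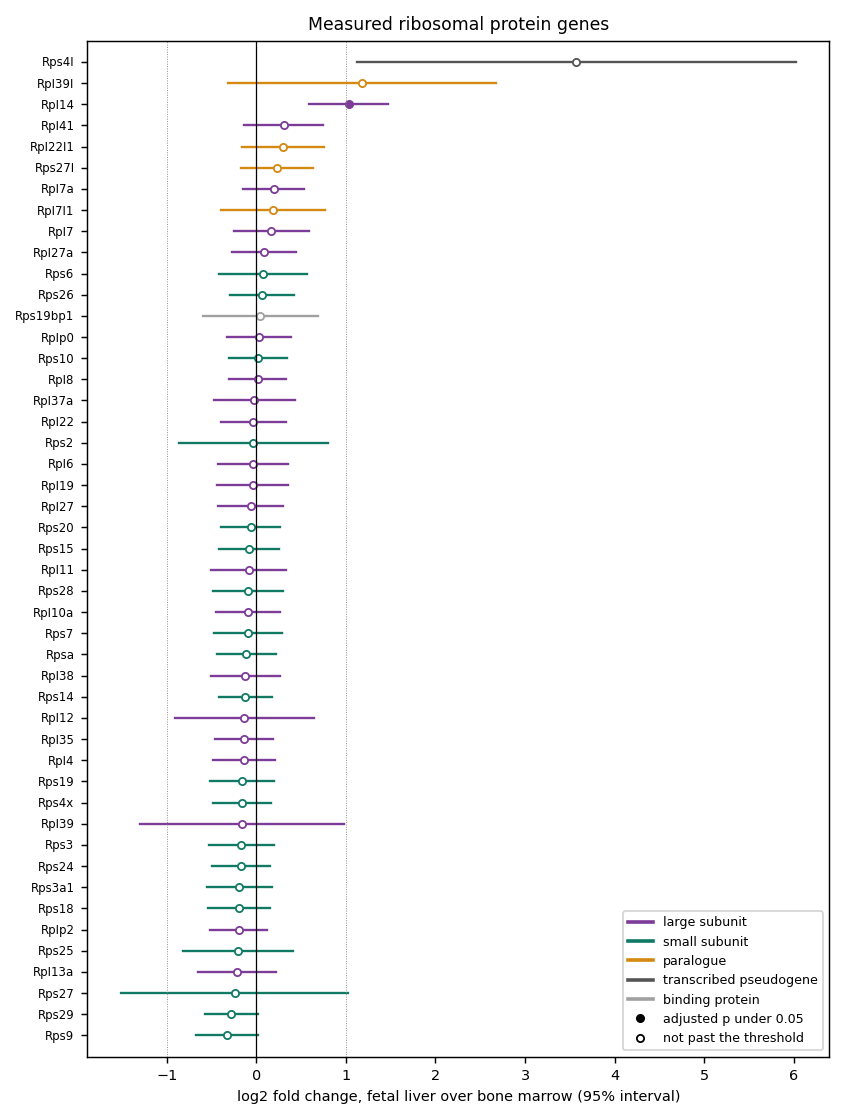
Log2 fold change (fetal liver over bone marrow) of the 47 measured members, with 95% intervals from limma, coloured by class; filled points have an adjusted p under 0.05. All but Rps4l, Rpl39l and Rpl14 lie between -0.33 and 0.31, and the intervals of Rps27, Rpl39, Rpl39l and Rps4l are wide.

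Rpl14, a protein of the large subunit, was the gene that rose. Its signals were 5042, 5089 and 4190 in fetal liver, against 2607, 1913 and 2507 in bone marrow. Every fetal liver array was above every bone marrow array, and the log2 fold change was 1.03 ± 0.20 (SE, limma adjusted p = 0.0109). Leaving out fetal liver replicate 2 gave an adjusted p of 0.0665, and a fit with no variance trend gave 0.0682. The adjusted p of the alternatives ran from 0.00326 to 0.0682. Rpl14 lies on chromosome 9 and has 1 probe set assigned to it alone. The annotation of 5 further probe sets lists Rpl14 together with 1 other symbol. These 5 had mean signals of 13494 to 26315 in fetal liver and 12742 to 27412 in bone marrow, and fold changes of -0.06 to 0.09 (log2, adjusted p 0.799 to 0.995 over all kept probe sets). The difference was therefore seen on the dimmest of 6 probe sets, and their positions in the transcript were not analysed here.

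**Figure D2:**
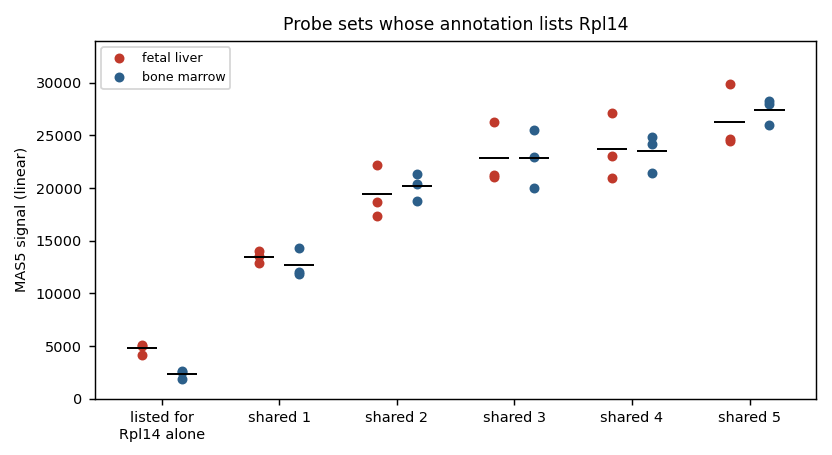
MAS5 signal (linear scale) on each array for the 6 probe sets whose annotation lists Rpl14, with fetal liver left of bone marrow and bars at the means (n = 3). The probe set listed for Rpl14 alone separates the organs, at 4774 against 2342 on average, while the 5 shared ones overlap between them.

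Rps4l had the largest fold change of the members and did not pass the threshold. It is annotated in GRCm38.p6 as a transcribed pseudogene on chromosome 6, related to the small subunit gene Rps4x. Its signals were 542, 709 and 859 in fetal liver, against 187, 2.94 and 177 in bone marrow. All 3 fetal liver arrays were above all 3 bone marrow arrays, and bone marrow replicate 2 was below background. The log2 fold change was 3.57 ± 1.11 (SE, adjusted p = 0.0794, 95% interval 1.12 to 6.02). Without bone marrow replicate 2 the fold change was 1.91 and past the threshold (adjusted p = 0.016). It was also past it with median centring (adjusted p = 0.0454) and with a larger offset (adjusted p = 0.0448), within 0.016 to 0.215 over all alternatives. Rps4x itself, the X-linked gene of the small subunit protein, had signals of 21134, 16589 and 16770 in fetal liver and 21168, 19007 and 20354 in bone marrow, a log2 fold change of -0.16 ± 0.15 (adjusted p = 0.577).

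None of the other paralogues passed the threshold. Rpl39l, a paralogue of Rpl39 known from mouse testis, had signals of 65.4, 69.2 and 64.8 in fetal liver, against 15.4, 77.1 and 16.8 in bone marrow. The groups overlap because of bone marrow replicate 2, and the other 2 bone marrow arrays were below background. Its log2 fold change was 1.18 ± 0.68 (adjusted p = 0.342). Rpl39 had a fold change of -0.16, with a 95% interval of -1.30 to 0.98, from a dim probe set of 178 to 303 in fetal liver and 134 to 504 in bone marrow.

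Rpl22l1, which can take the place of Rpl22 in the mouse ribosome, had signals of 5832, 7713 and 8377 in fetal liver, against 4729, 6087 and 7025 in bone marrow. The groups overlap, and the log2 fold change was 0.30 ± 0.21 (adjusted p = 0.44, 95% interval -0.16 to 0.76). Rpl22, an RNA-binding subunit needed for T cell development in mice, had a fold change of -0.03 ± 0.16 (adjusted p = 0.941). Rps27l, a target of p53 in human cells, had signals of 8205, 6516 and 7007 in fetal liver, against 6662, 5063 and 6821 in bone marrow. Its fold change was 0.23 ± 0.18 (adjusted p = 0.498), and its 2 dimmer probe sets gave 0.52 and 0.61, neither past the threshold. Rpl7l1, related to Rpl7, had a fold change of 0.18 and Rps19bp1 one of 0.04, neither past it (adjusted p = 0.743 and 0.955).

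**Figure D3:**
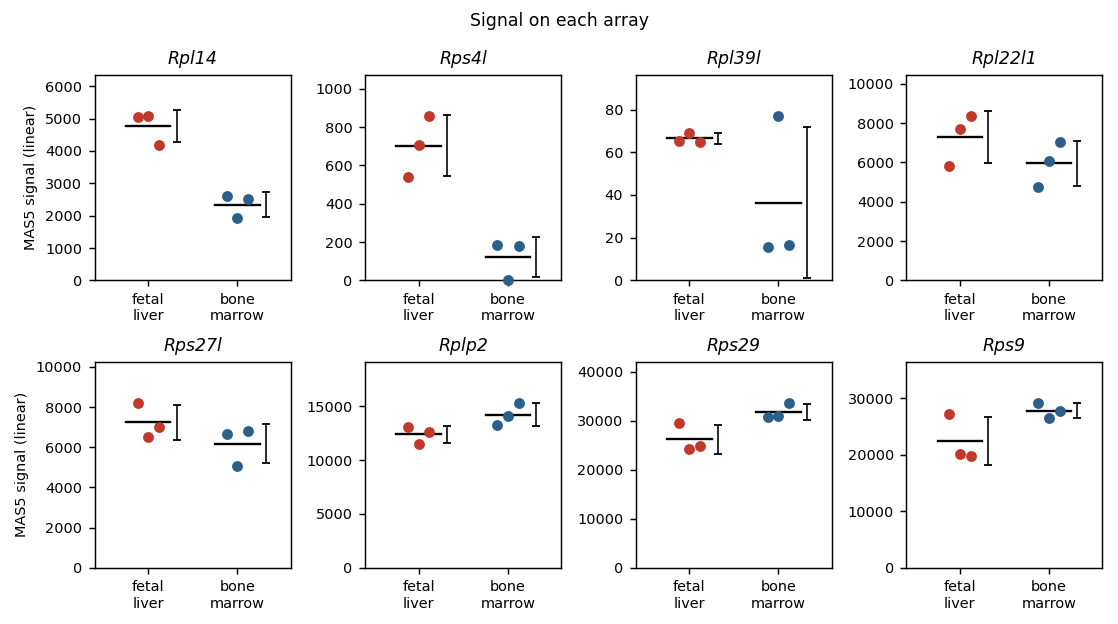
MAS5 signal (linear scale) on each array for 8 members, with bars at the means and error bars of 1 SD (n = 3), fetal liver left of bone marrow. Rpl14 and Rps4l are higher in fetal liver without overlap, Rplp2 and Rps29 are lower without overlap, and the other 4 overlap.

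The members with the lowest fold changes belonged mostly to the small subunit, and none passed the threshold. Rps9 had signals of 27224, 20162 and 19704 in fetal liver, against 29125, 26478 and 27665 in bone marrow, a log2 fold change of -0.33 ± 0.15 (adjusted p = 0.241). Fetal liver replicate 1 lay within the range of bone marrow, and the other 2 fetal liver arrays were below it. Rps29, a short zinc-binding protein of the small subunit, had signals of 29633, 24158 and 24849 in fetal liver, against 30806, 30870 and 33613 in bone marrow, with no overlap and a fold change of -0.28 ± 0.13 (adjusted p = 0.243).

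Rplp2, an acidic protein of the stalk that recruits elongation factors to the large subunit, had signals of 13080, 11487 and 12605 in fetal liver, against 13238, 14125 and 15309 in bone marrow. Here too the groups do not overlap, with a fold change of -0.20 ± 0.14 (adjusted p = 0.456), and of 0.05 under median centring. The 3 fetal liver signals were all above those of bone marrow for 2 members (4.26%) and all below for 2 (4.26%), against 13.8% and 14.2% of all genes. The stalk base Rplp0 had signals of 19226, 18526 and 19619 in fetal liver and 17853, 15825 and 23273 in bone marrow, a fold change of 0.03 ± 0.16 (adjusted p = 0.945).

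Rpl13a, which in human monocytes is also released from the ribosome to silence inflammatory mRNAs, had a fold change of -0.21 ± 0.19 (adjusted p = 0.571), and its other probe sets gave -0.14, 0.40 and 0.64. Rps27 (-0.24, 95% interval -1.51 to 1.03) was read by a dim probe set of 46.8 to 89.0 in fetal liver and 51.2 to 151 in bone marrow. Rps25 (-0.20), Rps18 (-0.19) and Rps3a1 (-0.19) were the other members at the low end, with adjusted p of 0.724, 0.518 and 0.551.

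At the high end, Rpl41, the smallest protein of the ribosome, had signals of 6261, 6848 and 6680 in fetal liver and 4123, 5499 and 6688 in bone marrow, a fold change of 0.31 ± 0.20 (adjusted p = 0.408). Its 3 dimmer probe sets pointed the other way, at -0.19, -0.99 and -1.27, and none passed the threshold, so no direction can be given for Rpl41. Rpl7a (0.19) and Rpl7 (0.17) followed, with adjusted p of 0.506 and 0.666.

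None of the measured genes named here whose human counterparts are mutated in Diamond-Blackfan anaemia passed the threshold. Rps19, the gene most often affected, had signals of 5860, 6106 and 6507 in fetal liver and 7189, 6066 and 7414 in bone marrow, with overlap and a fold change of -0.16 ± 0.16 (adjusted p = 0.628, 95% interval -0.52 to 0.20). Rpl11, which also binds MDM2 and so restrains the breakdown of p53, had signals of 19232, 12503 and 14433 in fetal liver and 18800, 13869 and 15909 in bone marrow, a fold change of -0.09 ± 0.19 (adjusted p = 0.841). Fold changes of Rps24, Rps26, Rps10 and Rps7 were -0.17, 0.07, 0.02 and -0.10, with adjusted p of 0.551, 0.86, 0.963 and 0.796.

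Rps14, whose human counterpart is lost in the 5q- syndrome, had a fold change of -0.12, with a 95% interval of -0.42 to 0.17. Rps6, the subunit that S6 kinases phosphorylate, had signals of 4202, 2847 and 2838 in fetal liver and 3629, 2662 and 3018 in bone marrow, a fold change of 0.07 ± 0.22 (adjusted p = 0.893). Rpsa, also described as a laminin receptor, was at -0.11, Rpl38, which in mouse embryos is needed for translation of Hox mRNAs, at -0.12, Rpl4 at -0.14 and Rpl10a at -0.09. None of these 4 passed the threshold (adjusted p 0.659 to 0.79).

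Other probe sets of the same genes were mostly close to the chosen one where they were bright. Beyond the brightest probe set of each gene, 51 further probe sets of 22 members passed the filter, of which 0 were called by limma at an adjusted p under 0.05 (4 at an unadjusted p under 0.05) over the 27022 kept probe sets, against 5.06% of all of these. Of 22 with a mean signal above 10000, 21 had a fold change within 0.25 of that of the gene's brightest probe set. Over all 51 the fold changes ran from -1.27 to 0.72. Of the 110 shared probe sets, 106 passed the filter and 0 were called in either direction (5 had an unadjusted p under 0.05), with a median fold change of -0.09 and 35 positive. Rpl12, Rpl39, Rps25 and Rps27 were each read by an assigned probe set with a mean signal under 2000, and for each there was 1 shared probe set above 10000, with fold changes of -0.08, -0.23, -0.02 and -0.35.

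The members varied together between arrays of 1 organ. Among the 41 subunit genes, the median signal was 19168, 14457 and 14954 on the fetal liver arrays and 17853, 14339 and 17014 on those of bone marrow. Fetal liver replicate 1 was the brightest of its organ for 30 of the 41 (73.2%), at a median of 1.29 times the mean of the other 2 fetal liver arrays, against 39.4% of all genes. Among subunit genes with a mean above 10000 it was the brightest for 28 of 32 (87.5%), and among the 250 other genes as bright for 89.2%. The Gapdh 5′ to 3′ ratio was 0.109 on this array, against 0.449 and 0.432 on the other fetal liver arrays, and 0.099, 0.177 and 0.303 on those of bone marrow. Its part in this pattern was not tested.

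Leaving this array out moved the members downward. Without fetal liver replicate 1 the median over the members was -0.19, and that of the large subunit was -0.20. Rps9 and Rpl13a then had fold changes of -0.48 and -0.46 and passed the threshold (adjusted p = 0.0292 and 0.0309), while 15 of the 47 members had an unadjusted p under 0.05. The share of all genes, or of other genes as bright, with such a p in this fit was not computed. Fetal liver replicate 1 was also the brightest of its organ for 89.2% of the 250 other genes above 10000. Whether the shift is particular to the members was not tested. On all 6 arrays the other probe sets of Rps9 gave -0.12 and -0.20, and those of Rpl13a gave -0.14, 0.40 and 0.64. Without bone marrow replicate 2 the members' median was -0.14, and without fetal liver replicate 2 it was -0.01.

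**Figure D4:**
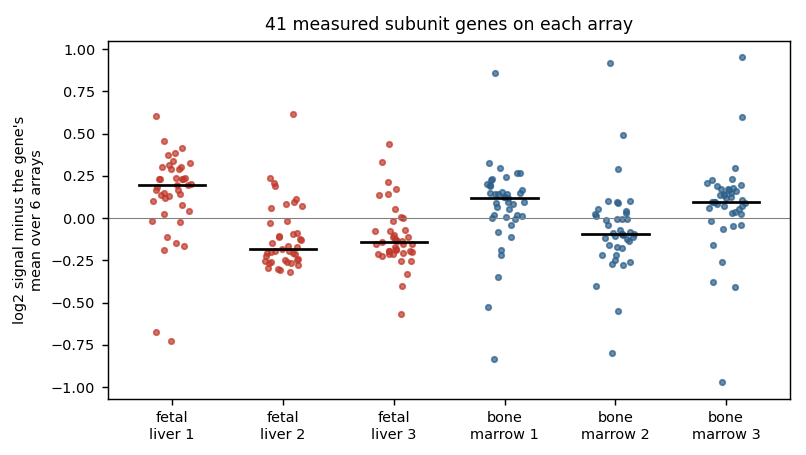
Log2 signal of each of the 41 subunit genes minus its mean over the 6 arrays, by array, with fetal liver left of bone marrow and a bar at the median. The medians are 0.20, -0.18 and -0.14 on the fetal liver arrays and 0.12, -0.09 and 0.10 on the bone marrow arrays, and the points of the organs overlap.

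A few members departed from this pattern. Rps2, a core protein of the small subunit, had signals of 6316, 12307 and 14163 in fetal liver and 5853, 12793 and 15796 in bone marrow. In both organs the array numbered 1 was the lowest, at about the same level, and the fold change of -0.03 had a 95% interval of -0.87 to 0.80. The dimmer probe set of Rps7 ran the same way, with 4283, 8163 and 8818 in fetal liver and 4680, 9678 and 11080 in bone marrow. These were the 2 arrays with the lowest Gapdh ratio, whose part was not tested.

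Genes that act on ribosomal proteins or beside them were set against this. Of all genes 7.77% were called, so a count of 0 or 1 in a list of 16 or 8 genes says little. Fau, whose product includes a small subunit protein but whose name lies outside the rule, had a fold change of 0.09 (adjusted p = 0.804). Of 16 measured genes with other TOP mRNAs, mostly translation factors, 0 passed the threshold in either direction in limma (1 at an unadjusted p under 0.05), with a median of 0.05. The 2 with the smallest p were Eif3k, an initiation factor subunit, at 0.53 and Tpt1, at -0.23 (adjusted p = 0.197 and 0.43). Eif3k was past it under median centring (adjusted p = 0.0462). Of 8 snoRNA host genes, whose introns carry small nucleolar RNAs, 1 rose and 0 fell, with a median of 0.11. This was Snhg3, at 1.49 ± 0.28 (adjusted p = 0.00994), which was not past it when fetal liver replicate 2 or 3 was left out (adjusted p = 0.054 and 0.0575).

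Assembly factors, which help to build the subunits, had mostly positive fold changes. Of 33 measured, 7 rose and 1 fell (24.2% called), against 3.01% higher and 4.76% lower of all genes. A positive fold change was found for 31, and the median was 0.54, against 0.01 over all genes. Over the 41 subunit genes it was -0.09, a difference between lists that was not tested. This list was not set against other genes of like brightness. Rrp12, a factor of late maturation and export, rose by 1.38 ± 0.25 on the log2 scale (adjusted p = 0.00836). Grwd1, a chaperone of the large subunit protein Rpl3, rose by 1.17 ± 0.20 (adjusted p = 0.00622). Nmd3, the export adaptor of the large subunit, and Lsg1, the GTPase that releases it, rose by 0.98 and 0.93 (adjusted p = 0.0401 and 0.0385). Rpf2, which helps to load the 5S particle was the single gene that fell, at -0.76 (adjusted p = 0.0427), and is named after its value was seen. Leaving out fetal liver replicates 1, 2 and 3 in turn left 2, 1 and 1 higher, and leaving out bone marrow replicates 1, 2 and 3 left 3, 3 and 4. None was lower in any of these 6 fits. The calls of Nmd3 and Lsg1 were each lost in 8 of 16 alternatives. That of Rrp12 was lost without fetal liver replicate 2 or 3 (adjusted p = 0.0527 and 0.0616), and that of Grwd1 without the probe sets of the _x_at and _s_at types (adjusted p = 0.079).

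Mitochondrial ribosomal proteins, a separate set encoded in the nucleus for the ribosome of mitochondria, also had mostly positive fold changes. Of 76 measured, 8 rose and 0 fell (10.5% called, against 7.77% of all genes called and 3.01% higher). A positive fold change was found for 72, and the median was 0.57, against 0.01 over all genes. Here too no comparison with genes of like brightness was made. Their summed signal was 173018 to 187832 in fetal liver and 110857 to 141092 in bone marrow. Mrpl34 rose by 1.73 ± 0.26 (adjusted p = 0.00346), Mrpl20 by 1.34 ± 0.28 (adjusted p = 0.0177), Mrpl47 by 1.20 ± 0.29 (adjusted p = 0.0327) and Mrpl58 by 0.99 ± 0.27 (adjusted p = 0.0492). The call of Mrpl34 was lost when its probe sets were averaged (1.11, adjusted p = 0.0908), that of Mrpl20 without fetal liver replicate 2 or 3 (adjusted p = 0.105 and 0.108) and that of Mrpl47 in 6 of 16 alternatives. That of Mrpl58 was lost in 9, and its fold change was -0.12 with the mean of its probe sets. With fetal liver replicates 1, 2 and 3 left out in turn, 2, 1 and 1 were higher, and with bone marrow replicates 1 and 2 left out, 4 and 2. Leaving out bone marrow replicate 3 gave more than the 8 of the full fit.

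No gene passed the threshold in the lists of upstream regulators and of p53 and ribosomal stress. Of all genes 7.77% were called, so a count of 0 in lists of 10 to 14 genes says little. Of 14 genes of the mTORC1 and S6 kinase relay, 0 passed in limma (1 at an unadjusted p under 0.05), with a median of 0.11. The activating GTPase Rheb was at 0.64 (adjusted p = 0.119, past it under median centring at 0.0302) and Mlst8, a subunit of mTORC1, at -1.12 (adjusted p = 0.296). The value of Mlst8 rested on bone marrow replicate 1, at 712 against 162 and 166 on the other bone marrow arrays, and was -0.42 without it. Of 11 genes of MYC and RNA polymerase I, 0 passed (2 higher and 1 lower at an unadjusted p under 0.05), with a median of 0.47. Mycn was at -0.73 and the polymerase I factor Rrn3 at 0.80 (adjusted p = 0.0856 and 0.0925), and Rrn3 was past it under median centring (adjusted p = 0.0295) and with the mean of probe sets (0.0462). Of 10 genes of p53 and ribosomal stress, 0 passed (1 higher and 1 lower at an unadjusted p under 0.05), with a median of -0.12. Sesn1 was at -1.03 and Phlda3 at 1.22 (adjusted p = 0.0899 and 0.178), and Sesn1 was past it without fetal liver replicate 1 (adjusted p = 0.0465) and was at -0.64 with the mean of its probe sets.

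**Figure D5:**
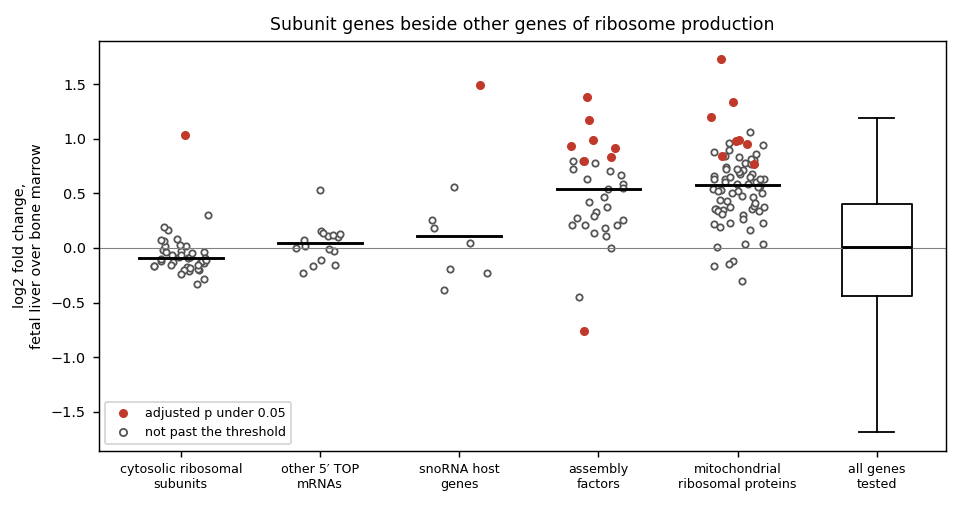
Log2 fold change (fetal liver over bone marrow) of single genes by list, with bars at the medians and filled points for an adjusted p under 0.05; the box for all 11625 genes spans the quartiles and its whiskers the 5th to 95th percentile. The 41 subunit genes cluster around -0.09, while the medians of assembly factors and mitochondrial ribosomal proteins are 0.54 and 0.57.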

How the data were processed

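RNA of 6 sorted samples was hybridised to Affymetrix arrays, 1 per sample. The deposited values are intensity signals on a linear scale for 45101 probe sets, made with MAS5, as named in the submitters' processing notes. Its version and scaling target are not given here. Signals were taken to log2(signal + 2.87), the offset being their 10th percentile. Probe sets with a mean above the 40th percentile were kept (27022 of 45037). Platform annotation supplied gene symbols (932 probe sets carried several), and the brightest probe set stood for a gene. Matching by gene ID to the GRCm38.p6 table succeeded for all 50 members and changed 0 symbols. Limma 3.58.1 in R 4.3.3 (lmFit, eBayes with an intensity trend) compared the organs, with a threshold of 0.05 on the Benjamini-Hochberg adjusted p over 11625 genes. Intervals are at 95%, unadjusted. The fit was tested on simulated data with independent noise for each probe set and array. Shifts shared by many genes of an array were not simulated, so that test does not cover them. The number of arrays limits the precision.

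Members and lists were chosen with earlier results of these data known. The text names every member past the threshold, the 8 with the highest and the 8 with the lowest fold change, and 36 members fixed for their roles, of which 26 were measured, 1 fell below the filter and 9 had no probe set of their own. From each pathway list it names up to 4 genes past the threshold, or the 2 with the smallest p, while the lists of cell type markers are given as counts and sums. Alternatives covered offset, scaling, filter, variance model, probe set rule, replicate block and each array left out. Each probe set was also tested on its own, a choice made after seeing the data. Figures were drawn with matplotlib 3.10.9.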

Additional observations from a re-analysis of the deposited data

How the results depend on the processing

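Most named members lay far from the threshold, so that 531 of 539 combinations of 34 members and an alternative being on the same side of it says little about their values. The exceptions were Rpl14, Rps4l, Rps9 and Rpl13a, as given above. The sign of the fold change turned under at least 1 alternative for 26 of the 34, and Rpl41 ran from -0.99 to 0.56. The number of members higher in fetal liver was 2 with the larger offset, with median centring and with the replicate block, 0 without the variance trend, and 0 to 2 with an array left out; the number lower was 0 to 2 with an array left out. Median centring moved the medians to 0.17 for the members, 0.21 for the large and 0.11 for the small subunit, 0.79 for assembly factors and 0.83 for mitochondrial ribosomal proteins, and the mean of probe sets gave 0.33 for assembly factors. With an array left out the median was -0.19 to -0.01 for the members, -0.20 to 0.052 for the large subunit and -0.26 to -0.10 for the small subunit, 0.43 to 0.61 for assembly factors and 0.49 to 0.63 for mitochondrial ribosomal proteins. Over all genes, 897 were higher under median centring (438 lower) and 166 without the variance trend, with 102 to 320 higher and 317 to 451 lower when an array was left out. Assembly factors higher in fetal liver numbered 14 under median centring, 3 under quantile normalization, 2 with no filter and 2 without the variance trend, and 1 to 4 with an array left out; the 1 lower became 0 under median centring, with no filter, without the variance trend, with the mean of probe sets and with an array left out. Mitochondrial ribosomal proteins higher numbered 29, 5, 2 and 13 under median centring, no filter, no variance trend and the replicate block, and 1 to 10 with an array left out. Snhg3 was joined by 1 other host gene under the block (2 in all), with 0 to 1 when an array was left out. Among other TOP mRNAs 1 was higher under median centring, quantile normalization and the mean of probe sets, in the mTORC1 list 1 and in the MYC list 1 under median centring, and in the MYC list 2 with the mean of probe sets. In the p53 list 1, Sesn1, was lower with the block (adjusted p = 0.0453) and 0 to 1 with an array left out. Mrpl58 turned to -0.12 with the mean of probe sets. The cause of these shifts was not tested. The replicate numbers are not shown to pair the samples. Same-numbered arrays deviated together with correlations of 0.15, -0.02 and 0.08, and arrays of different numbers with -0.15 to 0.10. Shared handling of same-numbered arrays was not tested. With the replicate block Rps4l was past the threshold (adjusted p = 0.034), and counts over all genes stayed within 1.5 times.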
